A study of Mus musculus with 12 samples.

Results

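The genes described here build, anchor and cut the extracellular matrix: collagens, laminins, integrins, the ADAM, ADAMTS and MMP proteases, the TIMP inhibitors, fibronectin (Fn1), Sparc and decorin (Dcn). They were found by gene symbol among 9073 genes of a count table, through the symbol starts Col with digits and a, Lama, Lamb, Lamc, Itga, Itgb, Adam, Mmp and Timp plus the 3 single names, which took 66 genes. Of these, 3 carry such a name without being a matrix or adhesion protein of these families: Col4a3bp, a ceramide transfer protein, and Itgb1bp1 and Itgb3bp, which bind integrin tails or were named for doing so. They are counted with the 66 and kept out of the classes. The other 63 are 8 fibrillar collagens, 8 collagens of basement membranes, networks and beaded filaments, 3 fibril-associated collagens, 5 laminin chains, 7 integrin alpha and 5 beta chains, 9 ADAM, 4 ADAMTS, 3 ADAMTS-like and 5 MMP genes, 3 TIMP genes and the 3 single names.

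RNA came from samples labelled as adult dorsal root ganglion (DRG) neurons, from mice of the genotype RPL22HA+/+;Advillin-Cre+. In these mice Cre, driven by the sensory neuron gene Advillin, turns on a ribosomal protein with a haemagglutinin (HA) tag. Markers of other cell types were also counted, in the lysate as in the pulldown, and are given below. All 4 groups carry these alleles. They differ by fraction, Input lysate or the anti-HA pulldown of tagged ribosomes (IP), and by virus, an adeno-associated virus named AAV-control or one named AAV-shGpr151 after a hairpin against the receptor gene Gpr151, with 3 count columns in each group. The design text speaks of cultured neurons from mice with a conditioning sciatic nerve injury and the extraction protocol of ganglia taken fresh; the labels give neither the age in weeks nor whether columns of a group came from separate animals.

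Collagens are triple helices that form fibrils, as types I, III and V do, or the meshwork of basement membranes, as type IV does. Laminins are cross-shaped trimers of an alpha, a beta and a gamma chain that organise the basement membrane around Schwann cells and satellite glia. Integrins are alpha-beta pairs in the cell membrane that bind these proteins and link them to actin, and in sensory neurons integrin alpha7 beta1 is known for its part in axon growth on laminin after injury. MMP and ADAMTS enzymes cut matrix proteins, ADAM enzymes release the outer parts of membrane proteins, and TIMP proteins block the metalloproteases.

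Within a group the 3 columns differed by about as much as sampling of reads gives. For the 12 within-group pairs of columns, chi-square over its degrees of freedom lay between 0.981 and 1.05, and for the 54 pairs taken across groups between 1.80 and 156. Over the 66 genes alone it was 0.890 to 1.13 within the 4 groups. Each group was therefore summed to 1 library, which leaves no replicate check and no p-value. The libraries held 6332991 counts (Input control), 6148538 (Input labelled shGpr151), 4245486 (IP control) and 3285258 (IP labelled shGpr151). The targeted gene, Gpr151, was not lower in the IP library named for its hairpin: its log2 ratio there was -0.00 (-0.25 to 0.24), from 314 and 250 counts. For Input, with only 24 and 13, the ratio came to -0.86 (-1.96 to 0.17). The libraries are therefore called by their labels.

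Ratios are of summed counts over library sizes scaled by the trimmed mean of M values (TMM), with 95% intervals that cover counting error alone. To be called, a ratio had to pass 1.5-fold between the treatments, or 2-fold between IP and Input, with an interval wholly on 1 side of 0. Such calls compare these libraries and not the conditions. Against library totals, TMM sizes shift each IP-over-Input log2 ratio by -2.17 (control) or -2.19 (labelled shGpr151), which puts the median of all genes at -0.06 and -0.01. Directions between IP and Input are thus relative to the typical gene. The table lists no value below 1, so a listed gene has at least 3 counts in a library, and genes without a count in some column are not analysed here. In such bulk samples fewer cells of a type and less RNA per cell cannot be told apart.

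Levels are given as CPM, counts scaled to a library of 1000000 counts, and whether columns overlap was read on that scale. Since columns of a group differ by about read sampling, their overlap and the calls with a column left out reflect counting error. Neither is an agreement of replicates. The 66 genes took 0.237% of the counts in Input control and 0.238% in the other Input library, against 0.577% and 0.620% in IP. Single genes carried much of this, with Timp1 and Sparc together holding more counts in each Input library than all the others. Both are proteins secreted into the matrix. Timp1 summed to 5816 counts in Input control, 6883 in Input labelled shGpr151, 3793 in IP control and 2714 in IP labelled shGpr151. Sparc summed to 3347, 2823, 4755 and 3240 counts in the same order.

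**Figure D1:**
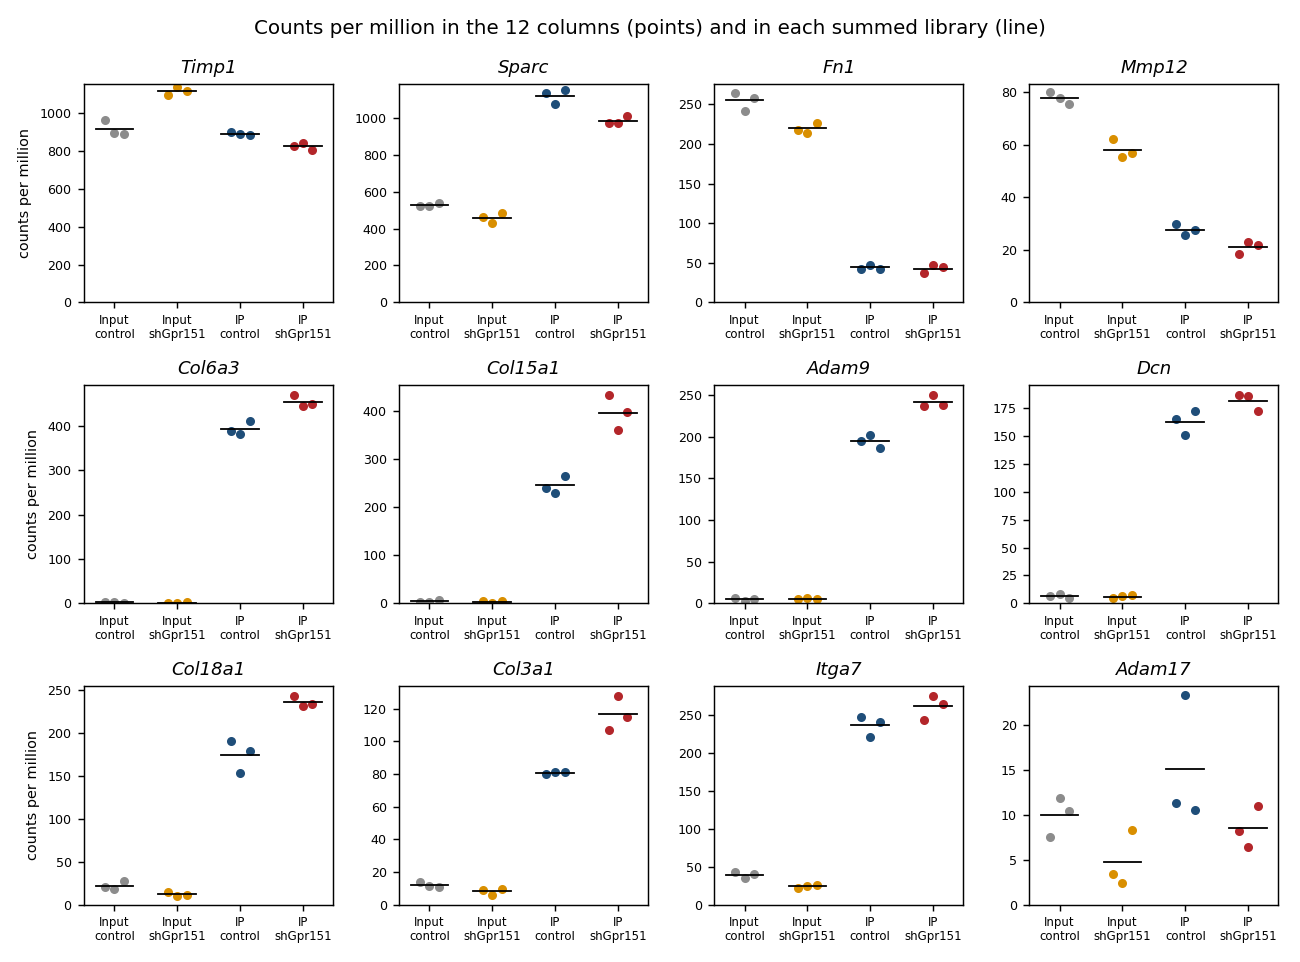
Counts per library of 1000000 counts (CPM; y axis, from 0) of 12 genes in the 3 columns of each of the 4 groups (points) and in the summed library (line). Fn1 and Mmp12 were higher in Input (255 and 77.7 CPM in control) than in IP (44.1 and 27.6), and Col6a3, Col15a1, Adam9 and Dcn were far higher in IP. On these axes the columns of a group lay close together except for Adam17. Adam17 rests on few counts, as do Col6a3, Col15a1, Adam9 and Dcn in Input.

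Between the treatments, more of these genes were called higher than lower in IP and more were called lower than higher in Input. In the IP library labelled shGpr151, 5 of 66 were called higher, against 2.27% of all 9073 genes (7.58% of the 66), and 1 was called lower, against 1.12% (1.52%). In Input 0 were called higher, against 4.1% of all genes, and 5 were called lower, against 4.54% (7.58%). The median log2 ratio of the 66 was 0.09 in IP, where that of all genes was 0.01, and -0.16 in Input, where that of all genes was -0.06. Above 0 in IP and below 0 in Input stood 27 of the 66, or 40.9%, against 31.0% of all genes, and the opposite held for 6, or 9.09%, against 26.5%. No test of these shares was made.

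**Figure D2:**
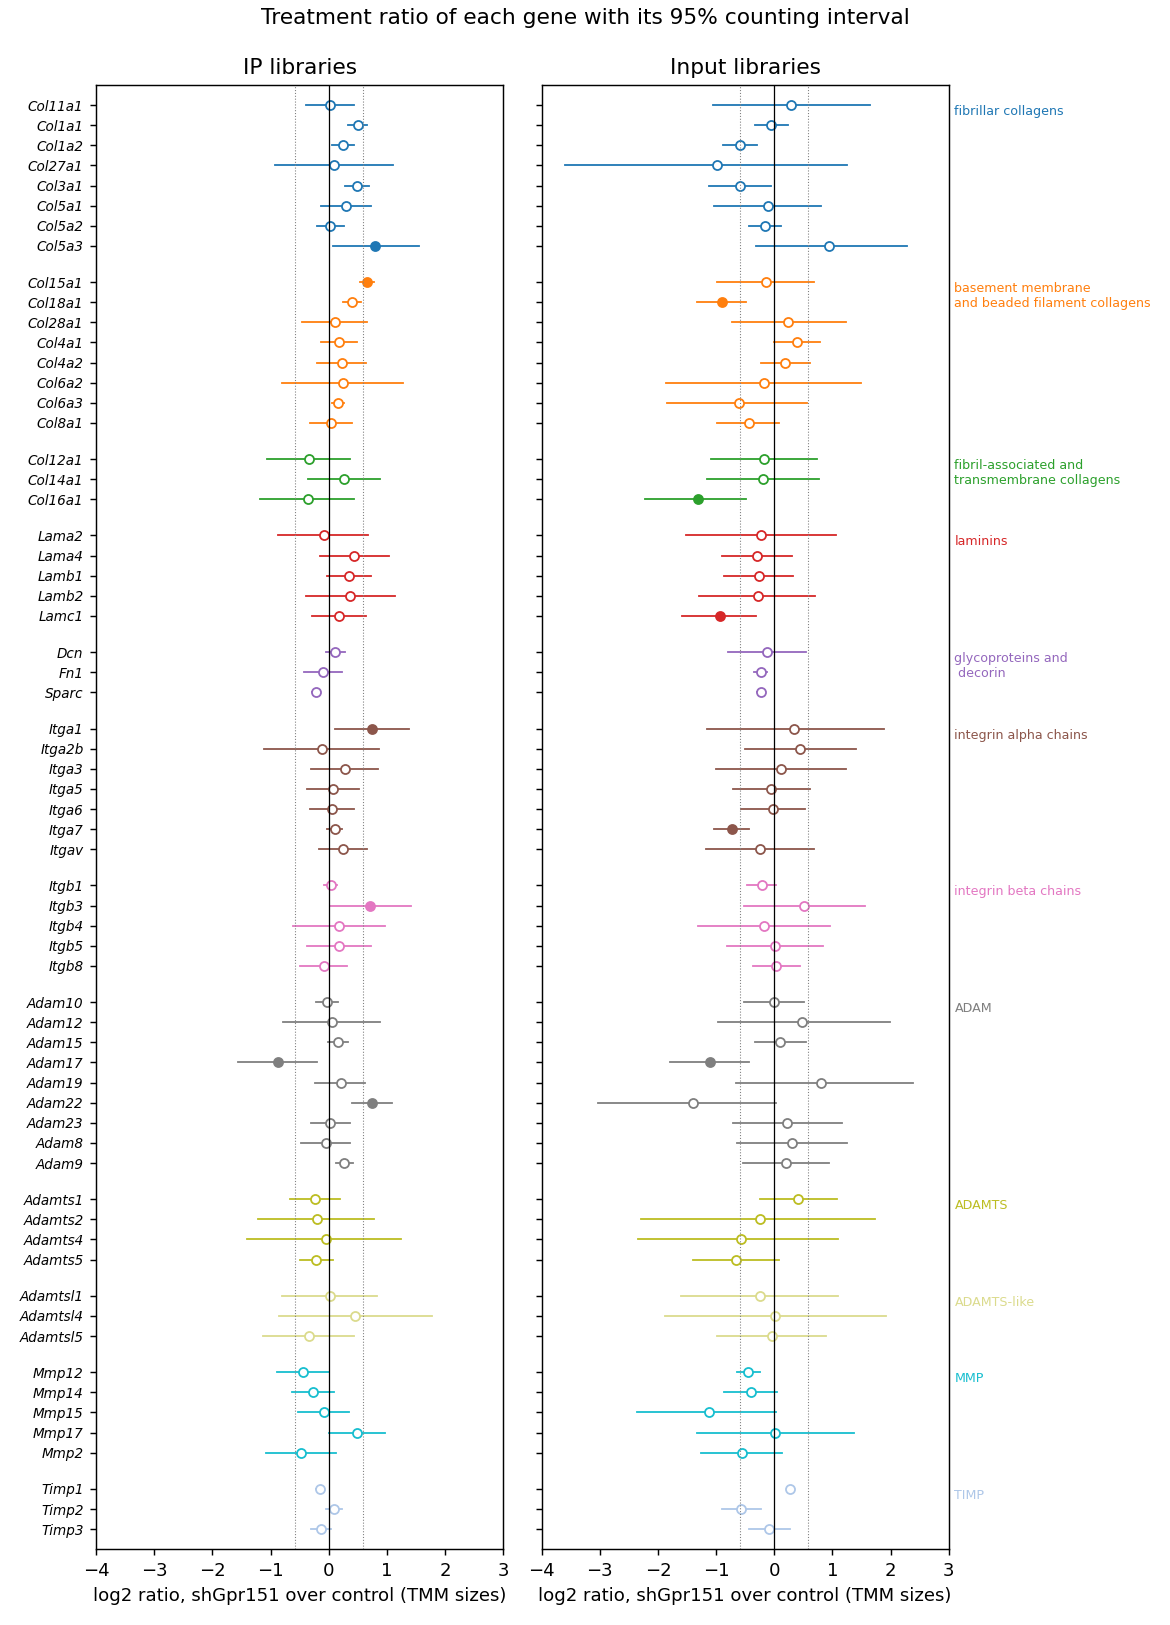
Log2 ratio of the library labelled shGpr151 over control (x axis) in IP (left) and Input (right) for the 63 genes of the families, by class; bars are 95% counting intervals, filled points are called genes and dotted lines mark 1.5-fold. All 8 fibrillar and all 8 basement membrane and related collagens have points above 0 in IP, while all 5 laminins have points below 0 in Input.

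All 8 collagens of fibrils had log2 ratios above 0 in the IP library labelled shGpr151, from 0.02 to 0.81, with a class median of 0.27. Of the 8, 1 was called, Col5a3, a minor chain of type V collagen. In IP control its columns gave 3, 13 and 12 reads, against 17, 10 and 12 in the other IP library; they overlap, and the ratio was 0.81 (0.07 to 1.56). That call ended without IP control column 1, at a ratio of 0.38, and without column 1 of the library labelled shGpr151, at 0.56.

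Col1a1, the main chain of type I collagen, rested on far more counts. It had 197, 183 and 194 counts in the IP control columns and 205, 220 and 223 in those labelled shGpr151, which is 135 and 197 CPM. These groups do not overlap, and the log2 ratio of 0.50 (0.34 to 0.67) stayed under 1.5-fold. In Input it had 208 and 198 counts, a ratio of -0.05 (-0.34 to 0.24).

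Col3a1, the type III chain, had 113, 115 and 115 counts in IP control against 117, 140 and 126 in the other IP library, a ratio of 0.49 (0.27 to 0.70). In Input its columns ran the other way, with 29, 24 and 23 counts in control against 18, 12 and 20 in the one labelled shGpr151, a ratio of -0.58 (-1.13 to -0.05). The Input columns do not overlap, but the ratio sits at the threshold of 1.5-fold and was not called. Col1a2, the second type I chain, named here after its values were seen, had a ratio of 0.25 (0.06 to 0.43) in IP on 503 and 476 counts and -0.58 (-0.88 to -0.29) in Input on 242 and 159. Col1a2 and Col3a1 both passed the Input threshold when single Input columns were left out.

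Among the collagens of basement membranes, networks and beaded filaments, Col15a1 was the called gene in IP and Col18a1 the called gene in Input. These 2 encode the multiplexins, collagens with interrupted helices at basement membranes, from whose ends restin and endostatin are released. Col15a1 had 339, 326 and 376 counts in the IP control columns and 474, 395 and 435 in those labelled shGpr151, which do not overlap. Its level was 245 CPM (231 to 261) in IP control and 397 (376 to 419) in the other, a log2 ratio of 0.65 (0.53 to 0.77), and it was called with each column left out in turn, at 0.59 to 0.72. In Input it had 28 and 25 counts, a ratio of -0.14 (-0.98 to 0.69).

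Col18a1 had 43, 38 and 57 counts in the Input control columns and 30, 21 and 22 in those labelled shGpr151. The columns do not overlap, and the ratio of -0.90 (-1.33 to -0.48) was called lower. In IP the ratio was 0.40 (0.25 to 0.55), on 738 and 776 counts. Col6a3, the large chain of the beaded filaments of type VI collagen, had 1671 and 1491 counts in IP, a ratio of 0.16 (0.06 to 0.26), and 17 and 11 in Input. The 2 type IV chains that make up the common basement membrane network, Col4a1 and Col4a2, had ratios of 0.18 (-0.13 to 0.49) and 0.22 (-0.20 to 0.65) in IP and 0.38 (-0.01 to 0.78) and 0.19 (-0.24 to 0.61) in Input. Neither was called.

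The 3 fibril-associated collagens, Col12a1, Col14a1 and Col16a1, had Input ratios from -1.32 to -0.17. Col16a1, found beside fibrils and at basement membranes, was called lower in Input, with 16, 14 and 13 counts in control against 5, 5 and 7 in the one labelled shGpr151. These columns do not overlap, and the ratio was -1.32 (-2.22 to -0.48). In IP it had 37 and 23 counts, a ratio of -0.36 (-1.18 to 0.43). Col14a1, with the most counts of the class over all libraries, had -0.19 (-1.16 to 0.76) in Input and 0.26 (-0.36 to 0.89) in IP.

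All 5 laminin chains had Input ratios below 0, from -0.94 to -0.22, and 4 of 5 had IP ratios above 0. Lamc1, the gamma1 chain that most laminin trimers share, was called lower in Input. Its columns held 23, 22 and 21 counts in control against 9, 11 and 14 in the one labelled shGpr151, which do not overlap, and the ratio was -0.94 (-1.58 to -0.32). In IP it had 82 and 74 counts, a ratio of 0.18 (-0.29 to 0.65). Lamb1, the beta1 chain, had -0.26 (-0.86 to 0.33) in Input on 56 and 46 counts and 0.35 (-0.02 to 0.72) in IP on 122 and 124.

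Of the 3 single names none was called between the treatments, and in Input the intervals of Fn1 and Sparc lay below 0 while that of Dcn spanned it. Fn1, the glycoprotein of early matrix and of wound repair, had 559, 511 and 545 counts in Input control and 447, 439 and 465 in the other Input library. The columns do not overlap, and the ratio was -0.24 (-0.34 to -0.13). Sparc, a collagen-binding protein made by satellite glia and fibroblasts among others, had a ratio of -0.23 (-0.30 to -0.15) in Input and -0.23 (-0.29 to -0.16) in IP, where its columns held 1606, 1520 and 1629 counts against 1066, 1068 and 1106. Dcn, the small proteoglycan that coats collagen fibrils, had 0.11 (-0.05 to 0.27) in IP on 690 and 595 counts and -0.12 (-0.80 to 0.55) in Input on 42 and 38.

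Integrin alpha7 was the called integrin in Input. Itga7, the laminin-binding alpha chain that injured sensory neurons are known to induce, had 92, 73 and 84 counts in Input control and 44, 51 and 53 in the Input library labelled shGpr151. The columns do not overlap, and the ratio was -0.73 (-1.03 to -0.43). In IP it had 1003 and 859 counts, 236 and 261 CPM, and a ratio of 0.10 (-0.03 to 0.24). Its partner Itgb1, the beta1 chain that pairs with most alpha chains, had 1444 and 1181 counts in IP, a ratio of 0.04 (-0.07 to 0.15), and 284 and 241 in Input, a ratio of -0.22 (-0.47 to 0.04).

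Itga1, a collagen receptor chain, and Itgb3, the beta chain of the vitronectin receptor, were called higher in the IP library labelled shGpr151 on few counts. Itga1 had 15, 15 and 9 counts in IP control against 18, 23 and 11 in the other library, a ratio of 0.74 (0.12 to 1.38). Itgb3 had 11, 7 and 15 against 13, 11 and 19, a ratio of 0.71 (0.02 to 1.41). The columns of both genes overlap. The Itga1 call ended without IP control column 3 (0.54) or without column 2 of the library labelled shGpr151 (0.49), and the Itgb3 call without IP control column 1 or 2 or without column 3 of the other, where it was 0.45 at the lowest. The other integrin chains had IP ratios from -0.11 to 0.27 and none was called.

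The ADAM genes held calls in both directions. Adam17, the sheddase that releases tumour necrosis factor and other membrane-bound signals, was lower in both fractions, called in each. Its Input columns held 16, 25 and 22 counts in control against 7, 5 and 17 in the one labelled shGpr151, which overlap by 1 column, and the ratio was -1.10 (-1.79 to -0.44). The IP columns held 16, 33 and 15 against 9, 7 and 12, a ratio of -0.87 (-1.56 to -0.20). Scaled to their totals, the columns overlap in IP too, and that call ended without IP control column 2, at -0.40, and without column 2 of the library labelled shGpr151; the Input call held with each column left out, at -1.78 to -0.79.

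Adam22, which lacks an active protease site and anchors the synaptic ligand Lgi1 on neurons, was higher in IP. It had 35, 37 and 55 counts in IP control against 55, 58 and 57 in the IP library labelled shGpr151, which do not overlap once scaled, and a ratio of 0.75 (0.41 to 1.09) that was called with each column left out (0.63 to 0.98). In Input it had 16 and 6 counts, a ratio of -1.39 (-3.04 to 0.03). Adam9, the ADAM gene with the most counts, had 826 and 794 in IP, a ratio of 0.27 (0.13 to 0.41), and 31 and 35 in Input. Adam10, the sheddase of Notch and of amyloid precursor protein, had -0.03 (-0.23 to 0.16) in IP and -0.00 (-0.52 to 0.52) in Input.

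No ADAMTS, ADAMTS-like or MMP gene was called between the treatments. The 4 ADAMTS genes had IP ratios from -0.23 to -0.05, with Adamts5, an aggrecan-cutting enzyme, at -0.21 (-0.50 to 0.07) on 251 and 173 counts. Adamtsl5, a secreted relative without protease activity, had -0.34 (-1.14 to 0.44) in IP on 38 and 24. Of the 5 MMP genes, 4 had ratios below 0 in each fraction. Mmp12, the elastase known from macrophages, had 169, 164 and 159 counts in Input control and 127, 113 and 116 in the other Input library, which do not overlap, a ratio of -0.45 (-0.65 to -0.25). In IP it had 117 and 69 counts, a ratio of -0.43 (-0.89 to 0.01).

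Macrophage markers are given beside Mmp12; their part in its ratio was not tested. Of 19 such markers 12 were in the table, 0 were called in Input, and their summed level was 470 CPM in Input control (465 to 481 over its columns) and 498 (479 to 509) in Input labelled shGpr151, and the columns overlap. Tyrobp, an adaptor of myeloid receptors, had an Input ratio of 0.09 (-0.04 to 0.23) and Lyz2, lysozyme, 0.18 (0.03 to 0.33). Fcer1g, on 777 and 657 Input counts, lay on the other side of 0, at -0.22 (-0.37 to -0.07). In IP 2 of the 12 were called higher, Csf1r on 24 and 36 counts and Cx3cr1 on 11 and 23.

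The inhibitors went different ways. Timp1, known to be induced in nerve and ganglion after injury, had 2037, 1893 and 1886 counts in Input control and 2250, 2338 and 2295 in Input labelled shGpr151, which is 918 CPM (895 to 942) against 1119 (1093 to 1146). These columns do not overlap, and the ratio was 0.26 (0.21 to 0.32). In IP it had 1280, 1262 and 1251 counts against 906, 927 and 881, 893 and 826 CPM, and the ratio was -0.16 (-0.23 to -0.08). Neither passed 1.5-fold, and on library totals they were 0.29 and -0.11.

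Timp2, which also takes part in activating Mmp2, had 54, 67 and 65 counts in Input control and 51, 43 and 30 in the other Input library, a ratio of -0.56 (-0.90 to -0.23) that fell just short of 1.5-fold. In IP it had 933 and 794 counts, a ratio of 0.09 (-0.04 to 0.23). Timp3, the TIMP that binds to the matrix, had -0.13 (-0.30 to 0.04) in IP and -0.08 (-0.43 to 0.27) in Input. Of the 3 inhibitors, none was called between the treatments.

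The 3 name matches held no treatment call. Col4a3bp had 0.54 (0.08 to 1.01) in IP on 74 and 86 counts and -0.98 (-2.32 to 0.25) in Input on 18 and 9. Itgb3bp, a centromere protein, had -0.08 (-0.44 to 0.28) in IP and 0.35 (0.08 to 0.62) in Input, and lay toward Input at -2.05 and -2.48 in the IP-over-Input ratio of the 2 treatments. Itgb1bp1 had 0.01 (-0.31 to 0.32) in IP and 0.50 (-0.01 to 1.02) in Input.

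Promoter sequences are shown for genes that share a call in 1 fraction, so that the starts themselves can be compared. Those called lower in Input are Adam17, Col16a1 and Col18a1, among 5 such genes, and their IP ratios were -0.87, -0.36 and 0.40. Those called higher in IP are Adam22 and Col15a1, the 2 of the 5 whose call held with each column left out. The table has no entry for Itga7 and Lamc1. They were picked with their values known. The RefSeq promoter table (GRCm38.p6) held 46 of the 66 genes with 52 starts, and the windows are the 200 bases before the start, 5′ to 3′ on the gene's strand. They lie at chr12:21373633-21373832 (minus strand) for Adam17, chr4:130047640-130047839 (plus) for Col16a1, chr10:77166531-77166730 and chr10:77113706-77113905 (minus) for the upstream and downstream starts of Col18a1, chr5:8368161-8368360 (minus) for Adam22 and chr4:47207812-47208011 (plus) for Col15a1. The count table gives no coordinates and does not say which Col18a1 start was used. Capitals mark the GC box, GGGCGG or its complement CCGCCC.
Adam17: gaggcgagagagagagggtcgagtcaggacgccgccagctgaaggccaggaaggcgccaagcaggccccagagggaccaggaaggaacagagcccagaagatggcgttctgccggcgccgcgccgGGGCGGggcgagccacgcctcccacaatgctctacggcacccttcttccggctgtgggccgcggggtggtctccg
Col16a1: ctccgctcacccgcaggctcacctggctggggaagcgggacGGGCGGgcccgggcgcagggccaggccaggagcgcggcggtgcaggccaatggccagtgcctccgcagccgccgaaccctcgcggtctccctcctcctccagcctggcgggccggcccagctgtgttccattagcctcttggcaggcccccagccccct
Col18a1, upstream start: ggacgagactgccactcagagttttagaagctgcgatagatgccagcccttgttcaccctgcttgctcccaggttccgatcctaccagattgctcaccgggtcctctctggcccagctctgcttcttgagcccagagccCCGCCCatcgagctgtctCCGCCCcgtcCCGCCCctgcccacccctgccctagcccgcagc
Col18a1, downstream start: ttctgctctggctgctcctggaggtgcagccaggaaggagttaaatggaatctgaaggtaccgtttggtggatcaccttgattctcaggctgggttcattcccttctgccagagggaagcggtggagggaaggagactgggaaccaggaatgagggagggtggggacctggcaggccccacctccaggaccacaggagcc
Adam22: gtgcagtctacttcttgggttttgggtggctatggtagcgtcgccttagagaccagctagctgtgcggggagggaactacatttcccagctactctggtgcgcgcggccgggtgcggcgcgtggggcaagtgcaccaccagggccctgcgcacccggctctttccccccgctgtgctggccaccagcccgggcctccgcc
Col15a1: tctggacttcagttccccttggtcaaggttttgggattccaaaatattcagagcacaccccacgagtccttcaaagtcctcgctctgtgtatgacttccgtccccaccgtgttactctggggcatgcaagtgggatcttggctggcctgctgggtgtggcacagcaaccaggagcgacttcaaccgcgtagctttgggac

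The GC box stood once in the windows of Adam17 and Col16a1, 3 times at the upstream start of Col18a1, and not at its downstream start nor in the windows of Adam22 and Col15a1. Col5a3 and Itga1, also called higher in IP, are not shown. The window of Col5a3 held the GC box 2 times and that of Itga1 lacked it, so the genes called higher in IP differ in this. In the 250 bases before the start the GC box was found at 30 of the 52 starts of these genes, 57.7%, and at 32.7% of all 32851 starts of the table. The CCAAT box (CCAAT, or ATTGG on the other strand) was at 30.8% of the 52 against 33.8%, the TATA box (TATAAA or TTTATA) at 3.85% against 12.4%, and the AP-1 element TGANTCA, which reads alike on both strands, at 3.85% against 6.75%. None of these strings holds another of them. The 32851 starts were not limited to genes of the count table, as the 52 were, so these shares come from unlike sets. Such matches describe letters in the window and were not tied to the counts.

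Between IP and Input the 66 genes spread widely to both sides of the typical gene. In control 11 of 66 were called higher in IP, 16.7%, where 21.2% of all genes were, and 15 were called lower, 22.7%, where 26.2% were. In the libraries labelled shGpr151, 21 were called higher, 31.8% against 23.5%, and 11 lower, 16.7% against 27.1%. The 11 called higher in control were all among the 21, and 10 of the 15 called lower were among the 11. On library totals, by contrast, 53 and 58 of the 66 were called higher and 2 and 2 lower, so the balance of directions depends on the scale, whereas the order of the genes does not.

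**Figure D3:**
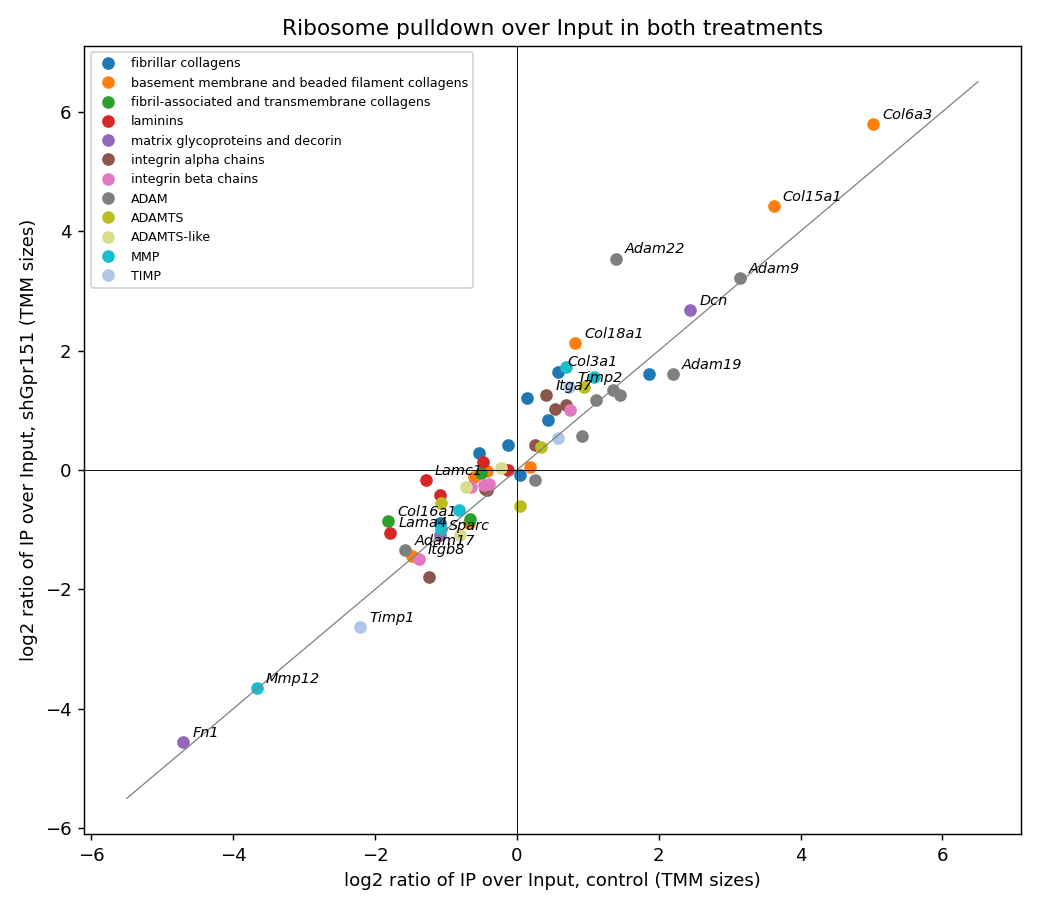
Log2 ratio of IP over Input on TMM sizes in control (x axis) and in the libraries labelled shGpr151 (y axis) for 63 genes, coloured by class, with the line of equal ratios. Col6a3, Col15a1, Adam9 and Dcn lie at the upper right and Fn1, Mmp12 and Timp1 at the lower left in both, and Adam22 and Col18a1 lie above the line.

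The ADAM genes were the class with most calls toward IP, with 6 of 9 called higher in each treatment; the Adam23 call in the libraries labelled shGpr151 ended without Input column 1, at 0.87. Adam9 had 14, 6 and 11 counts in the Input control columns and 276, 286 and 264 in IP control, a ratio of 3.14 (2.62 to 3.71), and 3.21 (2.73 to 3.75) in the libraries labelled shGpr151. Adam19, Adam23, Adam22, Adam10 and Adam15 followed in control, at 2.20, 1.45, 1.39, 1.36 and 1.12. Adam22 reached 3.53 (2.38 to 5.0) in the libraries labelled shGpr151, where its Input count was 6. Adam17 went the other way, at -1.57 (-2.10 to -1.05) in control and -1.34 (-2.14 to -0.54), and on totals these were 0.60 and 0.85. The second call ended without column 3 of the Input library labelled shGpr151.

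Among collagens, Col6a3 stood out, with 7, 6 and 4 counts in Input control and 550, 539 and 582 in IP control, a ratio of 5.02 (4.34 to 5.81), and 5.79 (4.95 to 6.80) in the other treatment. Col15a1 had ratios of 3.62 (3.08 to 4.22) and 4.42 (3.85 to 5.05), and Col11a1, a minor fibril chain, 1.86 (0.93 to 2.96) and 1.60 (0.72 to 2.61). Type I collagen did not share this, with Col1a1 at -0.13 (-0.36 to 0.10) and 0.42 (0.19 to 0.66). Toward Input lay Col4a2, at -1.47 and -1.44 in the 2 treatments, and Col16a1, at -1.81 (-2.49 to -1.15) in control. Collagens called higher in the libraries labelled shGpr151 and not in control were Col18a1, at 2.12 (1.77 to 2.49) against 0.82 (0.56 to 1.10), and Col3a1, at 1.65 (1.22 to 2.10) against 0.58 (0.22 to 0.96).

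Laminins lay toward Input in control, with 3 of 5 called lower, Lama4 at -1.79 (-2.38 to -1.21), Lamc1 at -1.28 (-1.77 to -0.79) and Lamb2, named as the remaining call, at -1.08 (-1.93 to -0.20). In the libraries labelled shGpr151, Lama4 alone was called, at -1.05 (-1.66 to -0.44), and that call ended without IP column 3 or Input column 2 of those libraries. The Lamb2 call in control ended without IP control column 2 or Input control column 3, at -0.59 at the weakest. On totals the Lama4 ratios were 0.38 and 1.15 and the control ratio of Lamb2 was 1.09. Dcn lay toward IP in both treatments, at 2.44 (1.99 to 2.93) and 2.68 (2.21 to 3.19). Fn1 had the lowest ratio of all 66, -4.71 (-4.93 to -4.49) in control and -4.56 (-4.82 to -4.31), from 1615 counts in Input control to 187 in IP control. Sparc was at -1.09 (-1.15 to -1.02) and -1.09 (-1.17 to -1.02), and on totals at 1.08 and 1.10.

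Integrins split by chain. Itga7 and Itgb1 were above the typical gene in both treatments, Itga7 at 0.41 (0.21 to 0.62) and 1.25 (0.99 to 1.51) and Itgb1 at 0.75 (0.57 to 0.94) and 1.00 (0.80 to 1.21). Itgb8, which pairs with alpha v to activate TGF-beta, was called lower, at -1.38 (-1.77 to -0.99) and -1.49 (-1.91 to -1.08), as was Itga2b, the platelet alpha chain, at -1.24 (-2.20 to -0.27) and -1.79 (-2.77 to -0.83) on 17 to 24 counts a library. On totals both were above 0, at 0.79 and 0.70 for Itgb8 and 0.93 and 0.41 for Itga2b. The control call of Itga2b ended without IP control column 2 or Input control column 3. The Itgb1 call in the other treatment rests on a ratio at the threshold, and it ended without any 1 of 3 columns, at 0.94 at the lowest.

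On TMM sizes Mmp12 and Timp1 lay far toward Input in both treatments. Mmp12 had 492 counts in Input control and 117 in IP control, a ratio of -3.67 (-3.97 to -3.38), and -3.66 (-4.05 to -3.28) in the other treatment. Timp1 had -2.21 (-2.27 to -2.15) and -2.63 (-2.70 to -2.57). On totals Timp1 was at -0.04 and -0.438 and was not called, while Mmp12 was still called, at -1.495 and -1.463. Mmp15, a membrane-bound MMP, lay toward IP, at 0.70 (0.03 to 1.43) in control and 1.73 (0.78 to 2.84) in the libraries labelled shGpr151, as did Timp2 at 0.73 (0.50 to 0.96) and 1.39 (1.11 to 1.67) and Timp3 at 0.58 (0.32 to 0.85) and 0.53 (0.25 to 0.82).

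Markers of the tagged and of other cell types were read beside these ratios. Of 20 names listed as sensory neuron markers 18 were in the table, and 14 of them were called higher in IP in each treatment, with medians of 1.83 and 1.96; their summed level was 1160 and 1340 CPM in the Input libraries and 18160 and 17630 in IP. Of 17 fibroblast markers 8 were in the table, with medians of -0.05 and 0.41 and summed levels of 342, 304, 1221 and 1432 CPM in Input control, Input labelled shGpr151, IP control and IP labelled shGpr151, and Pdgfra, Dpt and Pi16 were not among the listed genes. Of 15 satellite glia markers 13 were in the table, with medians of 0.90 and 1.54, and of 17 Schwann cell markers 13, with medians of -0.16 and 0.23. Most of the 12 macrophage markers lay toward Input, with medians of -1.44 and -1.48, and 8 and 7 of them were called lower. Tyrobp had the lowest ratio of the list, -4.22 (-4.49 to -3.97) in control. Against this, 1 and 2 markers were called higher in IP. C1qa was called higher in each treatment, at 1.92 and 2.26, on 44 and 43 counts in Input and 502 and 503 in IP. Laptm5 was called higher only in the pair labelled shGpr151, at 1.345. Of 19 endothelial and mural markers 11 were in the table, with medians of -0.64 and -0.14. The part of RNA from these cells in the ratios of the collagens, laminins, Mmp12 and Timp1 was not tested.

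Between the treatments the same marker lists had medians near 0 in IP, at 0.04 for sensory neurons, 0.08 for fibroblasts, 0.10 for satellite glia, 0.03 for Schwann cells, 0.03 for macrophages and 0.14 for endothelial and mural cells. In Input the first 4 were at -0.11, -0.32, -0.20 and -0.21, below the median of all genes, and the last 2 above it, at 0.21 and 0.31. The summed endothelial and mural level in Input was 182 CPM (178 to 187 over the columns) for control against 238 (229 to 256) for the other library, with 0 of the 11 called. Mgp, a matrix protein and the fibroblast marker with the most counts, had 0.20 (0.11 to 0.30) in IP and -0.13 (-0.25 to -0.02) in Input. Of the 8 fibroblast markers, 0 were called in either. Called lower in Input were 2 of the 13 satellite glia and 1 of the 13 Schwann cell markers, with Cdh19 on both lists. Of the 18 sensory neuron markers 2 were called lower in Input, Snap25 at -0.75 and Map2 at -0.83. Map2 was called higher in IP, at 0.70 (0.43 to 0.98). The part of these cell types in the treatment ratios of the collagens was not tested.

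The treatment ratio in IP minus that in Input had an interval above 0 for 10 of the 66, 15.2%, where 11.2% of all genes did, and below 0 for 1, 1.52%, where 12.2% did. The largest was Adam22 at 2.14 (0.75 to 3.54), which rests on its 16 and 6 Input counts. Col18a1 had 1.30 (0.86 to 1.73), Lamc1 1.11 (0.36 to 1.86), Col3a1 1.07 (0.51 to 1.62), Itga7 0.83 (0.51 to 1.15), Timp2 0.66 (0.30 to 1.01) and Col1a1 0.55 (0.23 to 0.88). The others were Col1a2 at 0.83 (0.49 to 1.17), Col15a1 at 0.79 (0.01 to 1.58) and the name match Col4a3bp at 1.52 (0.28 to 2.76). Timp1 was the gene on the other side, at -0.42 (-0.51 to -0.33). Sparc, with narrow error, had -0.00 (-0.10 to 0.10). The comparisons share libraries, and the intervals hold counting error alone.

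**Figure D4:**
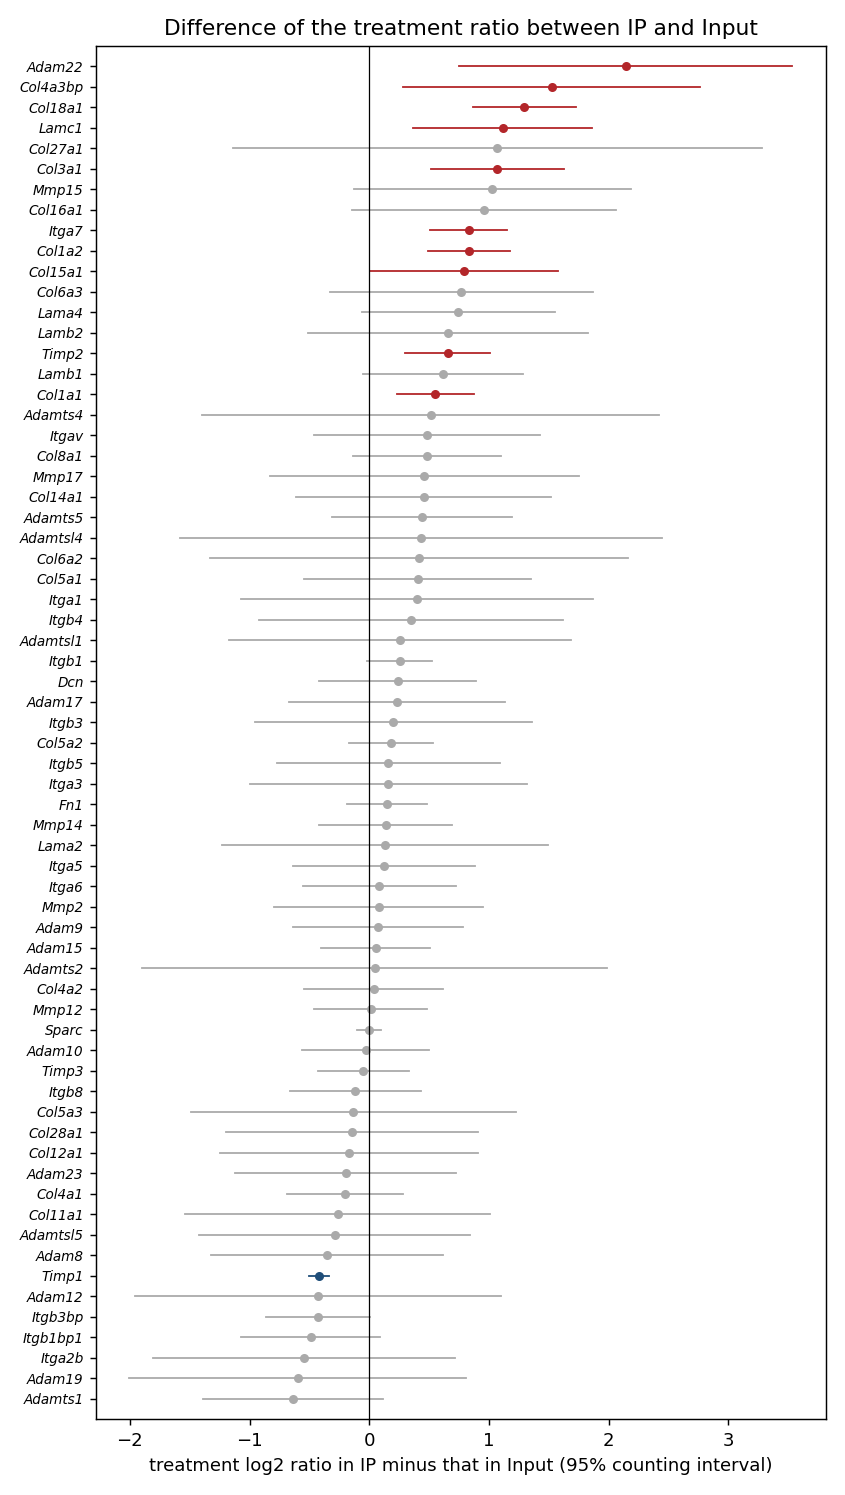
Treatment log2 ratio in IP minus that in Input (x axis) for all 66 genes with 95% counting intervals, sorted; red marks intervals above 0 and blue those below. The 10 red genes include 5 collagens (Col1a1, Col1a2, Col3a1, Col15a1 and Col18a1), and Timp1 is the blue gene at -0.42.

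Partner genes of the pathway, from lists that hold no member, are given with their treatment calls. Of all 9073 genes, 2.27% were called higher and 1.12% lower in IP, and 4.1% and 4.54% in Input. At such shares lists of this size hold few calls. Of 26 enzymes and chaperones of collagen synthesis and crosslinking 19 were in the table, and 0 were called in IP and 1 higher in Input, Ppib, a proline isomerase of the collagen-folding complex, at 0.63 (0.54 to 0.73). Serpinh1, the collagen chaperone, had -0.15 (-0.36 to 0.06) in IP and -0.23 (-0.52 to 0.06) in Input. Of 30 genes of integrin adhesion 25 were in the table, with 1 called higher in IP, the tensin Tns3, and 2 lower in Input, Zyx and Tns1. Of 17 basement membrane partners and matrix receptors 16 were in the table, and 0 were called in either fraction. Bcam, a laminin receptor of this list, had 358 and 267 counts in Input and 9036 and 8308 in IP, a treatment ratio of 0.21 (0.16 to 0.25) in IP and -0.40 (-0.64 to -0.17) in Input. Of 36 other matrix proteins 20 were in the table, also with 0 called, and Spp1 (osteopontin), with the most counts, had 0.01 (-0.04 to 0.07) in IP and 0.34 (0.19 to 0.49) in Input.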

How the data were processed

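Nanopore cDNA-PCR barcoding libraries were made, per the labels' protocols, with minimap2, Salmon, GRCm39 and mm39 listed, without versions, in the submitters' processing notes. Values are raw counts by Ensembl gene ID, as deposited by the authors. Not given in the sources used here are how reads shared by paralogs or by overlapping genes were assigned and whether strand was used. Symbols matched 9061 IDs and 12 had none.

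Columns were summed to 1 library per group after a chi-square check. TMM sizes came from edgeR 4.0.16 (R 4.3.3) on the 8312 genes, 62 of the 66 among them, that pass filterByExpr with min.count set to 10; ratios were computed for all 9073. Intervals are exact conditional binomial (Clopper-Pearson) at 95% for ratios, exact Poisson for levels and Wald on counting error for differences of ratios. Of these, the intervals for ratios were tested on simulated data. Intervals cover counting error only, since each group was summed to 1 library. PCR duplicates cannot be recognised without molecular identifiers, so the counting error itself may be larger than the intervals show. Named were, per comparison, up to 10 called genes a direction with at least 30 counts, the gene with the most counts of each class, Fn1, Sparc, Dcn and the TIMP genes, and up to 3 genes of other lists; Col1a2, Col4a1, Col5a2, Adamts1, Lamb2, Adamts4, Itgb1bp1, Csf1r, Cx3cr1, Tns1, Tns3, Zyx and any further gene outside this rule were chosen after their values were seen. Members, lists and rules were chosen with earlier results of these data known. Alternatives were library totals, RLE size factors, and, treating columns as replicates, DESeq2 1.42.0 and the quasi-likelihood test of edgeR (common coefficient of variation 1.22%), filters, folds and columns left out. Figures used matplotlib 3.10.9.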

Additional observations from a re-analysis of the deposited data

Results flagged for a closer look

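Between the treatments, 4 of the 66 genes had counting intervals on opposite sides of 0 in the 2 fractions, 6.06%, where 6.16% of all genes did. With 1 library per group the difference was not tested against replicates. Col18a1 had a log2 ratio of 0.40 in IP and -0.90 in Input, Col1a2 had 0.25 in IP and -0.58 in Input, and Col3a1 had 0.49 in IP and -0.58 in Input. Timp1 went the other way, at -0.16 in IP and 0.26 in Input. On library totals the signs were the same for each of these genes, with Timp1 at -0.11 (-0.19 to -0.04) and 0.29 (0.24 to 0.34).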

How the results depend on the processing

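Counts of called genes among the 66 are given in the order IP higher and lower, Input higher and lower (treatments), then IP over Input higher and lower, first for control and next for the pair labelled shGpr151; as reported they are 5, 1, 0, 5, 11, 15, 21 and 11. Library totals left the treatment counts within 1.5 times and gave 53, 2, 58 and 2 for IP over Input. The edgeR quasi-likelihood test on the 12 columns, with no fold, gave 7, 2, 1, 10, 20, 19, 24 and 16, and the same 8 counts with the replicate number as a block. Same-numbered columns of different groups did not deviate together (r from -0.02 to 0.02 over 7061 genes with at least 120 counts). Columns of a group differ by about read sampling, which libraries do not share. These r therefore cannot show whether the numbers pair samples. DESeq2 gave 3, 2, 1, 8, 19, 17, 22 and 14. Thresholds of 2-fold and 4-fold left 0, 0, 0, 2, 5, 4, 6 and 4. RLE sizes and both filters on low counts moved no count by over 1.5 times. With 1 column left out, IP counts ran from 3 to 6 higher and 0 to 1 lower, and Input counts from 0 to 1 higher and 5 to 9 lower. Of the called genes, 3 of 5, 1 of 1 and 0 of 5 (treatments) and 1 of 11, 3 of 15, 4 of 21 and 3 of 11 (IP over Input) lost their call without some column. On totals these IP-over-Input ratios changed sign, by the construction of that scale: Adam17 0.60 and 0.85, Col4a2 0.70 and 0.76, Itga2b 0.93 and 0.41, Itgb8 0.79 and 0.70, Lama4 0.38 and 1.15 and Sparc 1.08 and 1.10 (control and labelled shGpr151), Col16a1 0.36, Lamc1 0.89 and Itgb3bp 0.12 (control), and Adamtsl5 1.10 (labelled shGpr151). Depth limits the small genes: Adamts4, with 6 to 13 counts a library, had an IP treatment interval of -1.40 to 1.25.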

Other observations

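In RefSeq's gene order 3 pairs of the 66 genes are direct neighbours. Col4a1 and Col4a2 lie on opposite strands, and their treatment ratios were 0.18 and 0.22 in IP and 0.38 and 0.19 in Input. Col3a1 and Col5a2 had treatment ratios of 0.49 (0.27 to 0.70) and 0.03 (-0.21 to 0.26) in IP. Adamts1 and Adamts5, which encode 2 aggrecan-cutting enzymes, had -0.23 and -0.21 in IP and 0.41 (-0.25 to 1.07) and -0.65 (-1.40 to 0.08) in Input. Of these pairs, the type IV chains lay close to each other in both fractions, and the differences within pairs were not tested.

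Counts of Fn1 were far higher in Input than in IP, and in control 3 genes of the partner lists had a lower IP-over-Input ratio. Loxl2, a collagen crosslinking enzyme, had 3475 and 2430 counts in the Input libraries and 80 and 63 in IP, an IP-over-Input ratio of -7.04 (-7.38 to -6.72) in control. Ptk2, the focal adhesion kinase, had 6624 and 4796 counts in Input and 156 and 140 in IP, a ratio of -7.00 (-7.24 to -6.78). Parvb, an actin-linked adhesion protein, had 12201 and 8673 counts in Input and 944 and 883 in IP, a ratio of -5.29 (-5.38 to -5.19) in control and -4.59 (-4.69 to -4.49) in the other treatment. In that treatment P3h3, a collagen prolyl hydroxylase family member, was also below Fn1, at -4.73 (-5.64 to -3.94).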
